A study of Drosophila melanogaster with 12 samples.

Results

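The digestive enzyme genes of Drosophila melanogaster described here are the trypsin genes (symbols ending in Try), the Jonah genes (Jon and a number), the maltase genes Mal-A and Mal-B, the amylase genes (Amy) and the lysozyme genes LysB to LysX. They were chosen by symbol, and 47 genes of the RefSeq gene table have such a symbol. Of these, 36 had a probe set naming that gene alone and are the members, out of 11982 genes represented on the arrays. No member had a second such probe set. Amy-p and Amy-d shared 1 probe set, which stayed at or under a log2 signal of 2.52, and the other 9 genes (gammaTry, deltaTry, LysB, LysC, LysD, LysE, Jon99Cii, Jon99Ciii and Jon99Fii) were not analysed here.

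Trypsins and the chymotrypsin-like Jonah proteases are secreted by the midgut epithelium and cut dietary protein. Maltases are alpha-glucosidases that release glucose from maltose and sucrose, amylases break down starch, and the digestive lysozymes break bacterial cell walls. The midgut lies next to the ovaries in the fly abdomen, so that these genes are commonly read as marks of gut in dissected tissue.

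The ovaries were those of virgin flies 4 to 6 h old, with egg chambers younger than stage 9, and each of the 3 biological replicates per genotype pooled about 100 pairs. The mutants were A2663/v, with the allele su(Hw)[A2663] over su(Hw)[2] per its genotype label or over v per its source label and with the EPgy2 P element EY02782 in CG6499, and Pb/2, with su(Hw)[e04061] over su(Hw)[2]. Both carried y[2] and w[67c23] together with ct[6] and f[1] on the X chromosome. The wild types were BL15598 (y[1] w[67c23] with the same EY02782 insertion) and Canton S. A2663/v thus shares the P element with BL15598, and the ct[6] and f[1] markers of the mutants are in neither wild-type label. The log2 signal of su(Hw), the gene that was mutated, lay at 2.51 to 3.42 on the 6 mutant arrays and at 8.78 to 9.30 on the 6 wild-type arrays, so the labels of mutant and wild type held for every array. The ovary markers were present: 13 of 15 genes of the ovary list, osk, vas and grk among them, were over log2 5 on each of the 12 arrays.

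Log2 5 served as the floor of measurement, because GCRMA, the authors' normalisation, draws unexpressed probe sets to a narrow band of low values. By this floor 4 of the 6 mutant arrays stood apart. A2663/v replicates 1 and 3 and Pb/2 replicates 1 and 2 held 12, 12, 8 and 13 of the 36 members over the floor. A2663/v replicate 2 and Pb/2 replicate 3 held 2 each. In the wild types the counts were 3, 5 and 2 in BL15598 replicates 1, 2 and 3, and 2, 2 and 5 in Canton S replicates 1, 2 and 3. The 2 members found everywhere were Mal-A5 and Mal-B2. Leaving these aside, 34 members remain, and none of them was over the floor on 2 of the 6 mutant arrays and on 3 of the 6 wild-type arrays. Of all probe sets, 37.4% to 38.6% were over the floor on each array. Normalisation may even out such a share, so it cannot show that the arrays were alike. In ovaries profiled in bulk, fewer gut cells and less RNA per gut cell cannot be told apart. Whether the signal came from gut carried over at dissection was not tested.

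**Figure D1:**
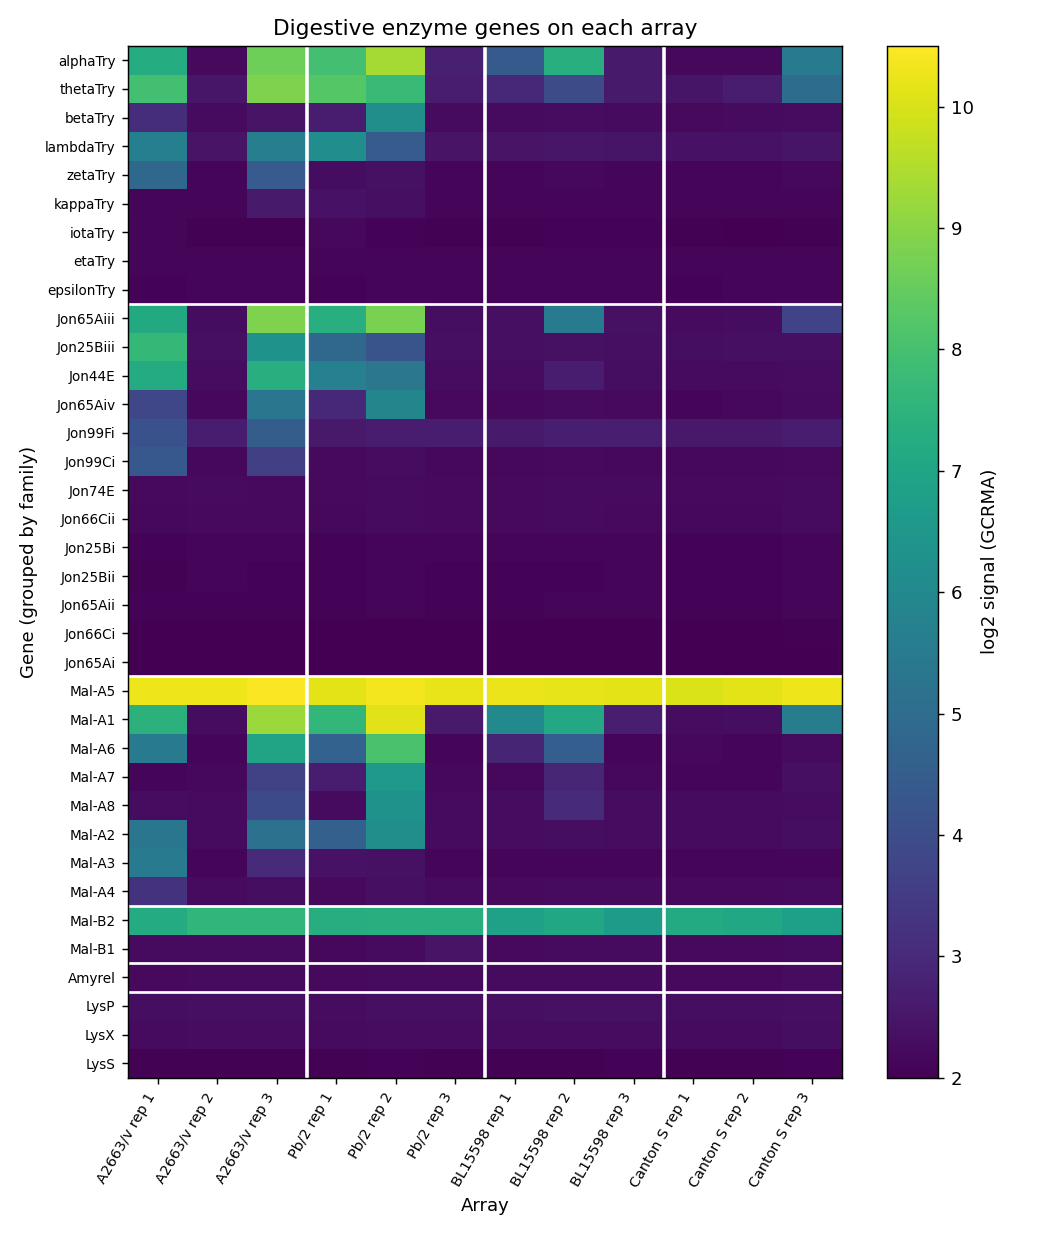
Log2 signal (colour) of the 36 digestive enzyme genes (rows, grouped by family) on the 12 arrays (columns, 3 replicates per genotype). Bright cells fill A2663/v replicates 1 and 3 and Pb/2 replicates 1 and 2, while Mal-A5 and Mal-B2 are bright in every column and 20 genes never exceed log2 5.

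Among the 9 trypsin genes on the arrays, 4 were over the floor on at least 1 array. alphaTry, a major midgut trypsin, had a log2 signal of 7.26, 2.21 and 8.64 in A2663/v replicates 1, 2 and 3 and 7.95, 9.35 and 2.75 in Pb/2 replicates 1, 2 and 3, against 4.40, 7.34 and 2.60 in BL15598 and 2.18, 2.18 and 5.54 in Canton S. It was over the floor on 4 mutant arrays, on BL15598 replicate 2 and on Canton S replicate 3, near background on the other 2 mutant arrays, and the mutant and wild-type values overlapped. thetaTry, a trypsin whose gene lies next to alphaTry, had 7.95, 2.50 and 8.86 on the A2663/v arrays and 8.27, 7.75 and 2.70 on the Pb/2 arrays, against 2.93, 3.96 and 2.60 in BL15598 and 2.48, 2.65 and 5.02 in Canton S. lambdaTry had 5.66, 2.46 and 5.65 on the A2663/v arrays and 6.16, 4.48 and 2.46 on the Pb/2 arrays, against 2.46, 2.52 and 2.48 in BL15598 and 2.43, 2.43 and 2.49 in Canton S. Both genes were high on the same mutant arrays as alphaTry, although lambdaTry was under the floor on Pb/2 replicate 2. betaTry had 3.12, 2.24 and 2.45 on the A2663/v arrays and 2.67, 6.20 and 2.24 on the Pb/2 arrays, against 2.24, 2.27 and 2.25 in BL15598 and 2.22, 2.24 and 2.28 in Canton S, and was over the floor on Pb/2 replicate 2 alone.

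The other 5 trypsin genes did not reach the floor. zetaTry came nearest, at 4.86 and 4.45 in A2663/v replicates 1 and 3, against at most 2.39 on every other array. These values sit at the edge of the floor, since the lowest member value over it was the 5.02 of thetaTry in Canton S replicate 3. kappaTry peaked at 2.63, and iotaTry, etaTry and epsilonTry varied by at most 0.15 over the 12 arrays. The trypsin genes lambdaTry, kappaTry, zetaTry, etaTry, thetaTry, alphaTry, epsilonTry, betaTry and gammaTry follow each other without another protein-coding gene between them in the RefSeq order. Genes with and without signal alternated along this row.

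Of 13 Jonah genes, 4 were over the floor on some array. Jon65Aiii had a log2 signal of 7.16, 2.28 and 8.85 on the A2663/v arrays and 7.34, 8.79 and 2.30 on the Pb/2 arrays, against 2.35, 5.54 and 2.39 in BL15598 and 2.26, 2.27 and 3.71 in Canton S. Jon44E had 7.23, 2.28 and 7.33 on the A2663/v arrays and 5.70, 5.37 and 2.29 on the Pb/2 arrays, against 2.29, 2.68 and 2.30 in BL15598 and 2.26, 2.25 and 2.29 in Canton S. Both were over the floor on the same 4 mutant arrays, and Jon65Aiii also on BL15598 replicate 2. Jon25Biii had 7.66, 2.35 and 6.36 on the A2663/v arrays and 4.86, 4.22 and 2.34 on the Pb/2 arrays, against 2.36, 2.38 and 2.36 in BL15598 and 2.33, 2.34 and 2.36 in Canton S. It was over the floor on A2663/v arrays alone, but without a filter on dim genes its log2 change in Pb/2 minus A2663/v was -1.65 ± 1.09 (SE; limma adjusted p = 0.636). Jon65Aiv reached 5.34 in A2663/v replicate 3 and 5.89 in Pb/2 replicate 2.

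The remaining 9 Jonah genes stayed under the floor. Jon99Ci had 4.33 and 3.62, and Jon99Fi 4.13 and 4.51, in A2663/v replicates 1 and 3, whereas Pb/2 replicates 1 and 2 were at 2.21 and 2.29 for Jon99Ci and at 2.58 and 2.65 for Jon99Fi, with wild-type arrays at 2.17 to 2.21 for Jon99Ci and 2.59 to 2.71 for Jon99Fi. Jon25Bi, Jon25Bii, Jon65Ai, Jon65Aii, Jon66Ci, Jon66Cii and Jon74E spanned 0.0425 to 0.0686 over all arrays. In the Jon65A row of neighbouring genes, Jon65Aiv and Jon65Aiii carried signal and Jon65Aii and Jon65Ai did not.

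The maltase genes fell into separate patterns. Mal-A1 had a log2 signal of 7.45, 2.27 and 9.21 on the A2663/v arrays and 7.63, 10.12 and 2.61 on the Pb/2 arrays, against 6.02, 7.14 and 2.72 in BL15598 and 2.27, 2.31 and 5.57 in Canton S. It was over the floor on 7 arrays, the most of any of the 34 variable members. Mal-A6 had 5.48, 2.15 and 6.98 on the A2663/v arrays and 4.68, 8.06 and 2.14 on the Pb/2 arrays, against 2.87, 4.53 and 2.16 in BL15598 and 2.17, 2.11 and 2.24 in Canton S. Mal-A2 had 5.32, 2.26 and 5.19 on the A2663/v arrays and 4.60, 6.19 and 2.26 on the Pb/2 arrays, against 2.28, 2.32 and 2.27 in BL15598 and 2.24, 2.24 and 2.30 in Canton S. Mal-A6 and Mal-A2 each passed the floor on 3 of the 4 mutant arrays that carried trypsin signal, and both fell short of it on Pb/2 replicate 1. Mal-A7 had 2.16, 2.17 and 3.69 on the A2663/v arrays and 2.64, 6.61 and 2.18 on the Pb/2 arrays, against 2.20, 2.91 and 2.19 in BL15598 and 2.14, 2.15 and 2.36 in Canton S. Mal-A8 had 2.27, 2.24 and 3.92 on the A2663/v arrays and 2.26, 6.37 and 2.25 on the Pb/2 arrays, against 2.27, 3.01 and 2.28 in BL15598 and 2.23, 2.24 and 2.29 in Canton S. Pb/2 replicate 2 was thus the single array over the floor for these 2 neighbouring genes, with A2663/v replicate 3 next for both. Mal-A3 was over the floor on A2663/v replicate 1 alone, at 5.54, and Mal-A4 reached 3.25 on the same array.

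Mal-A5 and Mal-B2 did not vary with the other members. Mal-A5 had a log2 signal of 10.28, 10.30 and 10.45 on the A2663/v arrays and 10.17, 10.34 and 10.20 on the Pb/2 arrays, against 10.25, 10.19 and 10.15 in BL15598 and 10.03, 10.15 and 10.27 in Canton S. Its arrays with and without trypsin signal overlapped and spanned 0.42 in all, although it lies in the unbroken row of Mal-A genes between Mal-A4 and Mal-A6. Mal-B2 had 7.22, 7.59 and 7.59 on the A2663/v arrays and 7.30, 7.32 and 7.34 on the Pb/2 arrays, against 6.85, 7.06 and 6.70 in BL15598 and 7.20, 7.08 and 6.80 in Canton S. Every mutant array was above every wild-type array for Mal-B2, the smallest gap being that between A2663/v replicate 1 and Canton S replicate 1. Such a separation with the mutants above was found for 5.35% of all 6163 genes tested. Mal-B1, its neighbour, was at background throughout, with a highest value of 2.44. Amyrel, the amylase-related gene, had 2.21, 2.24 and 2.24 on the A2663/v arrays and 2.22, 2.26 and 2.24 on the Pb/2 arrays, against 2.24, 2.26 and 2.26 in BL15598 and 2.22, 2.23 and 2.27 in Canton S. LysP, the brightest lysozyme gene, had 2.31, 2.34 and 2.33 on the A2663/v arrays and 2.29, 2.35 and 2.33 on the Pb/2 arrays, against 2.34, 2.38 and 2.37 in BL15598 and 2.31, 2.31 and 2.36 in Canton S. Both were at background throughout, as were LysX and LysS, which peaked at 2.31 and 2.09.

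**Figure D2:**
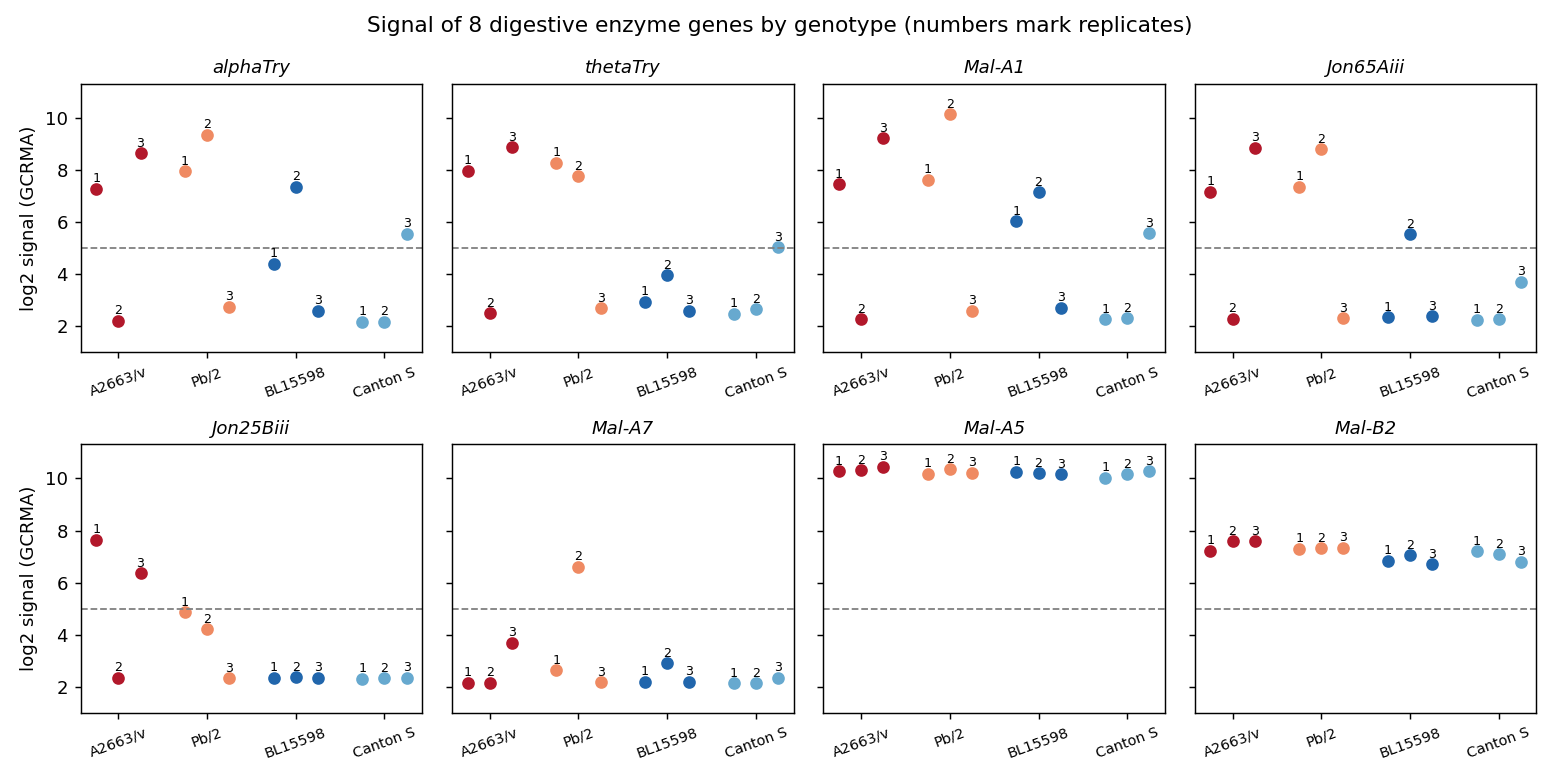
Log2 signal of 8 digestive enzyme genes by genotype, 1 point per array with its replicate number, and the log2 5 floor as a dashed line. alphaTry, thetaTry, Mal-A1 and Jon65Aiii are high on the same 4 mutant arrays, Jon25Biii passes the floor on A2663/v arrays alone, Mal-A7 on Pb/2 replicate 2 alone, and Mal-A5 and Mal-B2 on all arrays.

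The set of genes with signal differed between the 4 mutant arrays. Of the 14 variable members over the floor on any of them, 5 were over it on all 4 (alphaTry, thetaTry, Mal-A1, Jon65Aiii and Jon44E), 3 on 3 arrays (Mal-A2, Mal-A6 and lambdaTry), 2 on 2 arrays (Jon25Biii and Jon65Aiv) and 4 on 1 array (betaTry, Mal-A3, Mal-A7 and Mal-A8). A2663/v replicates 1 and 3 had 10 genes each and shared 9. Pb/2 replicates 1 and 2 had 6 and 11 and shared 5. The weaker signal of the wild types came from 4 genes, all of them also found on the mutant arrays: Mal-A1 in BL15598 replicates 1 and 2 and Canton S replicate 3, alphaTry in BL15598 replicate 2 and Canton S replicate 3, Jon65Aiii in BL15598 replicate 2 and thetaTry in Canton S replicate 3.

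The comparison of mutants with wild types asks which genes respond to loss of Su(Hw), and for the digestive enzyme genes it gave calls that changed with single arrays. The limma test took the genes that passed the floor on 3 or more of the 12 arrays, and 10 of the 36 members passed this filter. Of these 10, 7 would not have passed on the wild-type arrays alone, and all 5 genes called below are among the 7, so the counts and medians over the 10 are descriptions and support nothing. With calls requiring a limma adjusted p below 0.05 and 2-fold or more, 5 of the 10 rose in the mutants and 0 fell, while 3.98% of all 6163 genes tested rose and 1.85% fell. The median log2 change was 2.22 over these 10 members and -0.03 over all genes tested. Without the filter, 3 of all 36 members rose, against 2.12% of 11982 genes, 0 fell, against 1.05%, and the median log2 change of the 36 was 0.32.

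The genes that rose were thetaTry, with a log2 change of 3.06 ± 1.10 (SE; adjusted p in limma = 0.0354), Jon65Aiii, by 3.04 ± 1.18 (adjusted p = 0.0488), Jon44E, by 2.69 ± 0.80 (adjusted p = 0.0143), Mal-A2, by 2.03 ± 0.63 (adjusted p = 0.0182), and lambdaTry, by 2.01 ± 0.62 (adjusted p = 0.0176). The standard errors are large because each mutant genotype held arrays at both extremes: thetaTry averaged 6.44 ± 3.44 on the A2663/v arrays and 6.24 ± 3.08 on the Pb/2 arrays, against 3.16 ± 0.71 in BL15598 and 3.38 ± 1.42 in Canton S (SD, n = 3 each). Jon44E, Mal-A2 and lambdaTry did not reach the floor in any wild type, and with values raised to the floor they were 1.92-fold, 1.22-fold and 1.33-fold higher in the mutants. Mutant values under the floor were raised as well, so such folds, here and below, are no lower bounds. alphaTry (2.32 ± 1.29, adjusted p = 0.158), Mal-A1 (2.21 ± 1.36, adjusted p = 0.201) and Mal-A6 (2.24 ± 0.93, adjusted p = 0.0621) did not pass. Mal-B2 had an adjusted p of 0.00288, but its log2 change of 0.44 ± 0.10 was under 2-fold, and Mal-A5 did not pass (0.12 ± 0.06, adjusted p = 0.112).

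RNA and amplification quality, read from control probe sets at both ends of a transcript, also differed between mutants and wild types. For GAPDH the 3′ end exceeded the 5′ end by a log2 of 2.27 to 2.54 on the 6 mutant arrays, while 5 of the 6 wild-type arrays were at 1.67 to 2.03 and Canton S replicate 3, which held digestive enzyme signal, was at 2.43. For eIF-4a the mutant arrays were at 2.66 to 3.30, the same 5 wild-type arrays at 2.06 to 2.34 and Canton S replicate 3 at 3.05. BL15598 replicates 1 and 2 held digestive enzyme signal too, but were at 1.91 and 1.67 for GAPDH and at 2.07 and 2.11 for eIF-4a. A second GAPDH control had 4.36 to 4.70 in mutants and 3.81 to 4.24 in wild types, and actin 1.03 to 1.43 in mutants and 0.75 to 1.35 in wild types. For a second actin control, Act5C, the mutants, at 2.46 to 2.85, lay within the wild-type range of 2.20 to 2.90. The 2 mutant arrays without trypsin signal were at 2.41 to 2.45 for GAPDH and 2.97 to 3.30 for eIF-4a, against 2.27 to 2.54 and 2.66 to 3.17 on the 4 with it. The part of this difference in the member values was not tested.

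Under 21 other settings (filters, floor, variance models, weights, blocks and single arrays left out), the call was lost in 11 for thetaTry (adjusted p 0.0025 to 0.104), in 14 for Jon65Aiii (0.00645 to 0.132), in 2 for Jon44E (0.000141 to 0.0517), in 1 for Mal-A2 (0.00189 to 0.204) and in 1 for lambdaTry (0.00142 to 0.0884). Mal-B2 kept an adjusted p of 0.000492 to 0.00956 in them. Leaving out the 4 mutant arrays with trypsin signal gave 0 of 10 members called by limma. Those arrays were picked by the members' own signal, so this count was fixed by the choice and only describes what the other 8 arrays hold. On these, Jon44E, Mal-A2, lambdaTry and Mal-A6 were under the floor throughout and have no fold. The log2 change was -0.68 for thetaTry, -0.79 for Jon65Aiii, -1.56 for alphaTry and -1.90 for Mal-A1, whose remaining signal over the floor was in wild types, and 0.52 for Mal-B2 (adjusted p = 0.0377). Each mutant then has 1 array, which is assumed to vary like the wild types. Leaving out A2663/v replicate 2 or Pb/2 replicate 3, the mutant arrays without trypsin signal, raised the count of members called to 8. Leaving out any 1 of the 4 mutant arrays with signal lowered it to 3, as did leaving out BL15598 replicate 1 or 3 or Canton S replicate 1 or 2.

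**Figure D3:**
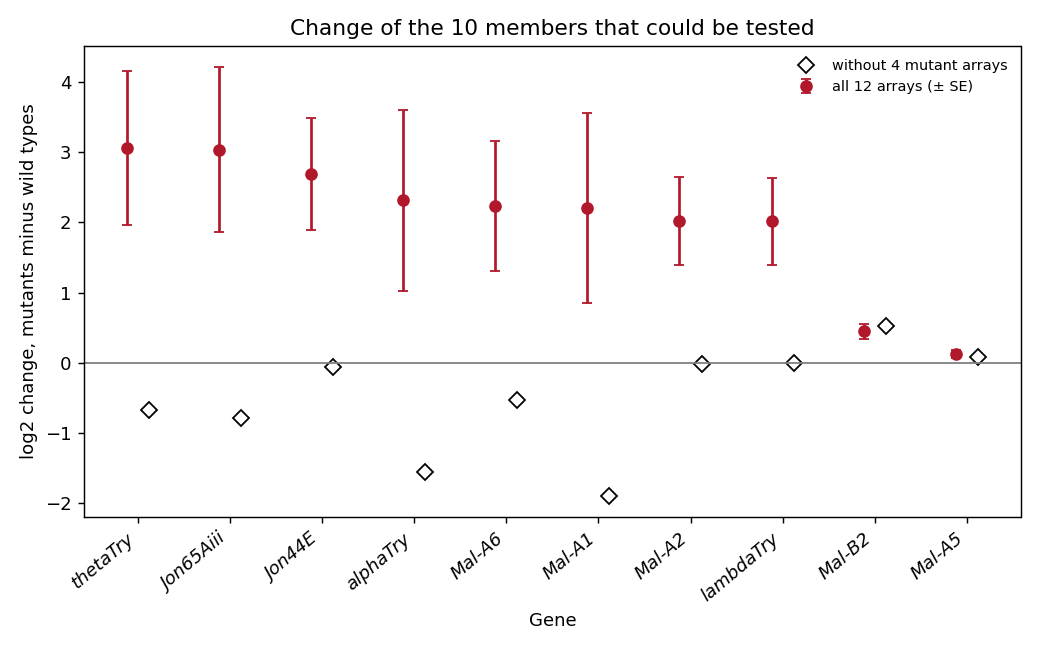
Log2 change of the 10 tested members, mutants minus wild types, on all 12 arrays (filled circles, bars are ± SE) and without A2663/v replicates 1 and 3 and Pb/2 replicates 1 and 2 (open diamonds). The 4 arrays were picked by these genes' own signal, so the gap between circles and diamonds shows how much of each change they carry and tests nothing. Mal-B2 and Mal-A5 have 0.44 and 0.12 with all arrays and 0.52 and 0.08 without the 4, and the diamonds of Jon44E, Mal-A2, lambdaTry and Mal-A6 compare values under the floor and have no readable sign.

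The comparisons below share arrays with the one above. Set against the mean of both wild types, A2663/v had 2 members called higher, Jon44E (3.27 ± 0.97, limma adjusted p = 0.0182) and lambdaTry (2.13 ± 0.76, adjusted p = 0.0424), with 3.6% of all genes tested higher and 1.98% lower. With values raised to the floor, Jon44E and lambdaTry were 2.87-fold and 1.35-fold higher. Without the filter 4 of 36 members were called higher in A2663/v, Jon25Biii, Jon99Ci, Jon99Fi and zetaTry, against 2.04% of all genes, and 0 lower, against 1.13%. All but Jon25Biii among these 4 were under the floor on every array. The calls of Jon44E and lambdaTry were lost without A2663/v replicate 1 and without replicate 3, and 6 members were called without replicate 2. Over the 21 other settings the call was lost in 4 for Jon44E (limma adjusted p 0.000176 to 0.115) and in 13 for lambdaTry (0.00335 to 0.198). Pb/2 had 1 member called higher, Mal-A2 (2.07 ± 0.77, limma adjusted p = 0.0465), with 3.96% of all genes higher and 2.17% lower. With values raised to the floor, Mal-A2 was 1.32-fold higher. Its call was lost in 13 of the 21 other settings (limma adjusted p 0.00481 to 0.282). Without the filter 0 of 36 members were called higher in Pb/2, against 2.21%, and 0 lower, against 1.23%. The count of 1 became 0 without Pb/2 replicate 1 or 2, and also without any 1 of the wild-type arrays, 4 without A2663/v replicate 2 and 8 without Pb/2 replicate 3. No member was called lower in either comparison.

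Between the mutants, Pb/2 minus A2663/v gave 0 member calls in limma, and 0 of 10 members at an unadjusted p under 0.05, against 21.9% of all genes tested, while 0.941% of all genes were higher and 1.15% lower in Pb/2 (0.426% and 0.659% without the filter, with 0 members). The log2 change of Jon44E was -1.16 ± 1.13 (adjusted p = 0.598), and it was called lower in Pb/2 only without A2663/v replicate 2 (-2.83, adjusted p = 0.0482). Between the wild types, BL15598 minus Canton S also gave 0 member calls in limma and 0 of 10 members at an unadjusted p under 0.05, against 36.8% of all genes tested, with 2.01% of all genes higher and 3.08% lower (1.19% and 1.79% without the filter, with 0 members). Mal-A1 differed there by 1.91 ± 1.92 (adjusted p = 0.514). Neither count of 0 of 10 shows that the genotypes compared were alike. Between the wild types, 4 of the 10 (Jon44E, Mal-A2, Mal-A6 and lambdaTry) were under the floor on every wild-type array. The standard errors in both comparisons come from all genotypes together, and the mutant arrays at both extremes widened them. Only Mal-A5 and Mal-B2 had small ones, with changes of 0.04 ± 0.08 and -0.16 ± 0.14 in BL15598 minus Canton S.

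Other gut genes were high on the same arrays. Of those tested and called below, yip7, CG10472, AstC and hoka passed the filter through mutant arrays alone. Ssk would not have passed it on the wild-type arrays alone. Their calls are therefore descriptions and support nothing. The list of enterocyte and gut lumen genes had 14 members on the arrays, of which 4 were over the floor anywhere and 1 was tested and rose. The serine protease gene yip7 had a log2 signal of 5.69, 2.12 and 7.99 on the A2663/v arrays and 6.59, 6.66 and 2.18 on the Pb/2 arrays, against 2.21, 4.38 and 2.19 in BL15598 and 2.16, 2.11 and 2.16 in Canton S (limma log2 change 2.67 ± 0.94 (SE), adjusted p = 0.0325). Its wild-type values were all under the floor, and with values raised to the floor it was 2.23-fold higher in mutants. Its call was lost in 11 of the 21 other settings (limma adjusted p 0.00333 to 0.0945). The lipase gene mag had 7.32 and 5.74 in A2663/v replicates 1 and 3 and at most 4.80 elsewhere, and the protease gene Bace had 7.37 in Pb/2 replicate 2 and at most 4.48 elsewhere. These genes too took different shares of the 4 arrays. mex1, a marker of midgut enterocytes, stayed under the floor but had 3.42 and 4.53 in A2663/v replicates 1 and 3 and 4.41 and 3.23 in Pb/2 replicates 1 and 2, against at most 2.62 elsewhere, whereas Peritrophin-15a and Peritrophin-15b were at background on all arrays. The fourth gene over the floor, Npc2g, reached 5.14 in Pb/2 replicate 1 and also in Canton S replicate 1, an array without trypsin signal. The summed signal of the list (antilog of log2) ran from 86 to 430 in mutants and from 84 to 114 in wild types.

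Of 20 further proteases and lipases, 4 were over the floor on some array, and the 1 tested, CG10472, rose. It had 6.81, 2.08 and 7.27 on the A2663/v arrays and 7.86, 5.88 and 2.08 on the Pb/2 arrays, against at most 2.37 on the wild-type arrays. Its log2 change was 3.20 ± 0.94 (SE, limma adjusted p = 0.0138), and with values raised to the floor it was 2.47-fold higher in mutants. Ser6 passed the floor on Pb/2 replicate 1, at 5.21, and CG18179 and CG18180 on Pb/2 replicate 2, at 5.40 and 6.05. The summed signal was 110 to 415 in mutants and 98 to 120 in wild types. Of 9 gut transcription factor genes, srp and cad were over the floor on all 12 arrays, and neither was called. The other 7 were under the floor on every array, those with trypsin signal included. GATAe, grn, nub, esg, fkh and bin were at most 3.09, and sug reached 3.30 on Pb/2 replicate 2. The list of gut transcription factor genes was summed at 995 to 1519 in mutants and 1513 to 1799 in wild types. Most of this sum was cad, at a log2 signal of 9.77 to 10.70.

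Among 8 enteroendocrine genes, those of the hormone cells of the gut, AstC, which encodes allatostatin C, rose, with a fitted log2 change of 4.00 ± 0.74 (SE; limma adjusted p = 0.000706). Its wild-type values were all under the floor, and with values raised to the floor it was 3.81-fold higher in mutants. It had 7.05, 3.61 and 8.78 on the A2663/v arrays and 8.37, 7.38 and 4.71 on the Pb/2 arrays, against 2.61, 2.82 and 2.70 in BL15598 and 2.58, 2.58 and 2.63 in Canton S. The 4 arrays over the floor were those with trypsin signal, but unlike the trypsin genes AstC was also above all wild-type arrays on the other 2 mutant arrays, at values under the floor. It was called in all 23 other settings, array removals included (adjusted p 2.18e-05 to 0.0189), also without the 4 mutant arrays (adjusted p = 0.00121), where every remaining value lay under the floor. Neurons express AstC as well. CCHa2 was over the floor on every array and was not called, and the other 6 genes (NPF, Dh31, Mip, CCHa1, pros and Orcokinin) were at background, at most 2.70. The summed signal was 159 to 594 in mutants and 139 to 272 in wild types.

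The genes closest in pattern to the digestive enzyme genes were ranked by Pearson's r over the 12 arrays with the mean of the 10 members over the floor on at least 3 arrays. This is a description: the mean was 6.98 to 7.87 on the 4 mutant arrays with trypsin signal and 3.55 to 5.33 on the other 8. Among those 8, BL15598 replicate 2, Canton S replicate 3 and BL15598 replicate 1 were highest, at 5.33, 4.62 and 4.27. A high r thus says mainly that a gene was high on the same arrays. Among 6359 genes over the floor on at least 1 array, the first 12 had an r of 0.951 to 0.974 and were CG9673, yip7, CG10911, CG5506, CG31198, CG18493, Tsp42Eq, CG12963, CG5399, Acbp5, CG44014 and Ssk, and 31 genes had an r over 0.9. Ssk encodes snakeskin, a membrane protein of the smooth septate junctions that seal the midgut epithelium. It had 6.54, 2.92 and 7.69 on the A2663/v arrays and 7.25, 7.38 and 4.06 on the Pb/2 arrays, against 2.93, 4.64 and 2.61 in BL15598 and 3.82, 2.62 and 5.15 in Canton S. Its log2 change was 2.35 ± 0.80 (SE; limma adjusted p = 0.0286), and the call was lost in 11 of the 21 other settings (adjusted p 0.00234 to 0.0884). Chosen after its values were seen, hoka, another gene of these junctions, had 4.99, 2.34 and 6.51 on the A2663/v arrays and 5.42, 5.49 and 2.40 on the Pb/2 arrays, against 2.30 to 2.40 in wild types, and its fitted log2 change was 2.19 ± 0.65 (SE; limma adjusted p = 0.0147). Against the floor hoka was 1.32-fold higher in mutants and was no longer called (limma adjusted p = 0.146). This fold is no lower bound either, because mutant values of hoka under the floor were raised too. Tsp2A and mesh, the other known junction components, chosen likewise, reached 5.24 and 4.94 on A2663/v replicate 3 and were at most 2.79 in wild types. Over all 18952 probe sets, 19 were over the floor on exactly the 4 mutant arrays with trypsin signal and under it on the other 8. Of these, 17 named a single gene, among them Jon44E, yip7, AstC, CG10472 and the alpha-mannosidase gene LManVI.

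Markers of other tissues were high on differing sets of arrays. Send1, a protease gene of the spermatheca, the sperm storage organ, had 9.78, 7.24 and 5.66 on the A2663/v arrays and 2.46, 2.49 and 2.47 on the Pb/2 arrays, against 2.47, 2.50 and 2.50 in BL15598 and 2.46, 2.47 and 8.28 in Canton S. It was high on A2663/v replicate 2, which lacked trypsin signal, and at background on both Pb/2 arrays with it. Of the 5 genes of the spermatheca and oviduct list 2 were tested and 0 called by limma in mutants minus wild types, Send1 having a log2 change of 1.57 ± 0.90 (SE; adjusted p = 0.169). In A2663/v minus wild types Send1 rose by 4.11 ± 1.10 (SE, limma adjusted p = 0.0104). The call was lost in 2 of the 21 other settings (limma adjusted p 9.2e-05 to 0.0746), that without A2663/v replicate 1 among them. Send1 was over the floor only on the A2663/v arrays and Canton S replicate 3. It thus passed the filter through the genotype in which it was called, so the call is a description and supports nothing. The list's genes over the floor numbered 1 or 2 on every array, and the summed signal was 307 to 1216 in mutants and 218 to 611 in wild types. The muscle actin gene Act79B passed the floor on A2663/v replicate 3 alone, at 7.32, and Act88F on Pb/2 replicate 3 alone, at 6.01. Of 13 muscle genes 10 were over the floor on all arrays and 0 were called, with a summed signal of 20157 to 24552 in mutants and 17754 to 27478 in wild types.

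Of 9 fat body genes, 6 were over the floor on every array and 0 were called in mutants minus wild types. In A2663/v minus wild types limma called Fbp1 (-1.08 ± 0.26 (SE), adjusted p = 0.00643) and Fbp2 (-1.45 ± 0.30, adjusted p = 0.00204) lower, and in Pb/2 minus A2663/v both were higher (1.18 ± 0.31, adjusted p = 0.0307, for Fbp1, and 1.70 ± 0.34, adjusted p = 0.00681, for Fbp2). Both were low on all 3 A2663/v arrays, with and without trypsin signal: Fbp2 had 6.72, 7.13 and 7.82 on these and 9.43, 8.65 and 8.69 on the Pb/2 arrays, against 8.85, 8.79 and 8.32 in BL15598 and 9.34, 7.90 and 8.83 in Canton S. Lsp2, a storage protein gene of fat body, had 7.06, 7.96 and 7.93 on the A2663/v arrays and 8.86, 8.18 and 8.17 on the Pb/2 arrays, against 8.30, 8.11 and 7.77 in BL15598 and 8.51, 7.58 and 8.42 in Canton S, and its arrays with and without trypsin signal overlapped. The list summed to 1049 to 2157 in mutants and 1227 to 2008 in wild types. Of 9 Malpighian tubule genes 2 were over the floor throughout and 0 were called (2706 to 3452 in mutants, 2866 to 3598 in wild types). Irk3 and CG31272, 2 genes of that list not tested, passed the floor on Pb/2 replicate 2 alone, at 5.77 and 5.59. Irk3 had 3.56, 2.26 and 4.91 on the A2663/v arrays and 4.53, 5.77 and 3.42 on the Pb/2 arrays, against 2.25 to 4.41 in wild types, and CG31272 had 3.28, 2.51 and 4.02 on the A2663/v arrays and 3.90, 5.59 and 2.57 on the Pb/2 arrays, against 2.42 to 3.38. On both, the 4 mutant arrays with trypsin signal were above the other 2. Of 10 haemocyte genes Pxn rose (2.69 ± 0.19 (SE), limma adjusted p = 1.26e-07) and NimC1 fell (-1.45 ± 0.23, adjusted p = 0.000229). The wild types also differed in both, with BL15598 below Canton S by -2.19 ± 0.27 for Pxn and -1.42 ± 0.33 for NimC1. NimC1 was under the floor on every mutant array and passed the filter through wild-type arrays alone. Its call in mutants minus wild types is therefore a description and supports nothing. Pxn had 4.78, 3.71 and 4.42 on the BL15598 arrays, all under the floor, so both of its changes rest in part on values under the floor. The haemocyte list summed to 1893 to 2146 in mutants and 1758 to 2164 in wild types. Of 9 neuron genes only elav was over the floor and it was not called (80 to 114 in mutants, 86 to 144 in wild types). Of 15 ovary genes Yp2 (-1.30 ± 0.38 (SE), limma adjusted p = 0.013) and Yp3 (-1.37 ± 0.25, adjusted p = 0.000613) fell. Against the wild types, Yp2 changed by -2.18 ± 0.46 in A2663/v and by -0.41 ± 0.46 in Pb/2. Yp3 changed by -1.86 ± 0.30 in A2663/v and by -0.88 ± 0.30 in Pb/2, and neither gene was called in Pb/2. The ovary list summed to 26656 to 35801 in mutants and 30232 to 36956 in wild types. The part of these tissues in the member values was not tested.

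**Figure D4:**
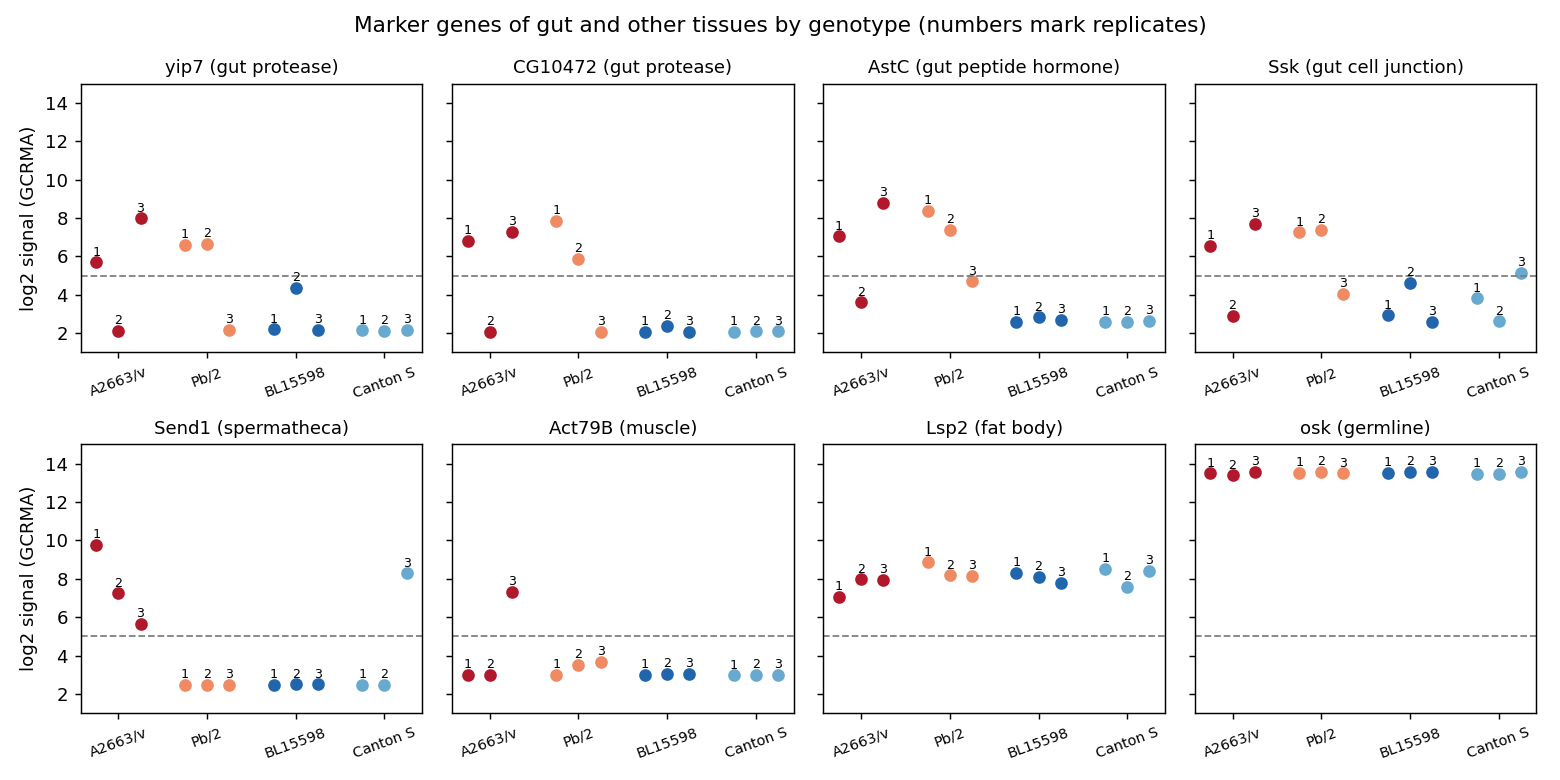
Log2 signal of 8 marker genes by genotype, 1 point per array with its replicate number, and the log2 5 floor as a dashed line. yip7, CG10472 and AstC pass the floor on the 4 mutant arrays with trypsin signal, Ssk on these and on Canton S replicate 3, Send1 on all A2663/v arrays and Canton S replicate 3, Act79B on A2663/v replicate 3 alone, and Lsp2 and osk on every array.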

How the data were processed

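Ovary RNA was hybridised to 12 arrays of 18952 probe sets, 3 biological replicates of each of 4 genotypes. The deposited values are log2 signals, made with Partek 6.5 and GCRMA per the submitters' processing notes, with order and settings not given in the sources used here. The number of arrays limits the precision. Names came from the gene table of the array platform, with symbols updated from RefSeq (Release 6 plus ISO1 MT), which gave 13647 probe sets naming 1 gene, 402 naming several, 4720 with no entry and 183 controls. The brightest single-gene probe set by mean signal represented each of 11982 genes. No coordinates are given, as no build is named for the arrays.

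Genes over log2 5 on at least 3 arrays (6163) were fitted with limma 3.58.1 in R 4.3.3: 4 genotype means, variances following mean signal, Benjamini-Hochberg adjustment over all genes tested. Calls needed an adjusted p below 0.05 and 2-fold or more. Alternatives covered filter, floor, centring, probe set rule, variance model, array weights, replicate block, fold minimum and arrays left out. Members, marker lists and tests were chosen with earlier results of these data known. The text names every member, with values on each array for the 14 with the highest single value; per list, genes over the floor that varied most; and the 12 genes closest in pattern. Gene levels are compared between arrays, not between probe sets. Whether transcripts of near-identical gene copies reach a member's probe set was not tested.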

Additional observations from a re-analysis of the deposited data

How the results depend on the processing

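The number of members called in mutants minus wild types, 5 on all arrays, was 3 without the filter on dim genes, 2 with values raised to log2 5, 3 with no variance trend, 2 with robust eBayes and 0 without the 4 mutant arrays with most digestive enzyme signal. It was also 0 without the 3 wild-type arrays with such signal (BL15598 replicates 1 and 2 and Canton S replicate 3), where the log2 changes of the 5 genes stayed at 2.03 (lambdaTry), 2.04 (Mal-A2), 2.75 (Jon44E), 3.75 (thetaTry) and 3.79 (Jon65Aiii) with fewer arrays. Both of these alternatives were chosen after seeing the data, by the members' own signal, so the 0 without the 4 mutant arrays was fixed by that choice. Leaving out 1 array gave 3 to 8. For A2663/v minus wild types, 2 on all arrays, the settings in that order, save raised values, gave 4, 1, 0, 0 and 0, array weights gave 5, and leaving out 1 array gave 0 to 6. For Pb/2 minus wild types, 1 on all arrays, they gave 0, 0, 0, 0 and 0, array weights 5, no minimum fold 2, and leaving out 1 array 0 to 8. For Pb/2 minus A2663/v leaving out 1 array gave 0 to 1 (Jon44E, lower in Pb/2, without A2663/v replicate 2), and for BL15598 minus Canton S it was 0 throughout. The cause of these changes was not tested. Without the 4 mutant arrays fitted log2 changes in mutants minus wild types were below 0 for Jon44E (-0.0579), Jon65Aiii (-0.79), Mal-A2 (-0.0185), lambdaTry (-0.0063), thetaTry (-0.68), yip7 (-0.39), CG10472 (-0.0501) and Ssk (-0.13). They were also below 0 for Jon44E (-0.063) and lambdaTry (-0.0021) in A2663/v minus wild types and for Mal-A2 (-0.0174) in Pb/2 minus wild types. The arrays left out were picked by the members' own signal, so none of these signs is read as a reversal. Those of Jon44E, Mal-A2, lambdaTry, yip7 and CG10472 also compare values under the floor. With the replicate block, Pb/2 minus wild types had 0 members called and mutants minus wild types had 4. Replicate numbers were not taken to pair the arrays. Deviations from the genotype means were correlated over 0.1 in 5 of 18 same-numbered pairs, with a range of -0.53 to 0.37. Deviations within a genotype are tied to each other, so this check cannot exclude a pairing. With a floor of log2 6, Canton S replicate 3 held 2 members in place of 5, and on the other arrays counts stayed within 1.5 times. Values under the floor on every array limit what can be said of 20 members, of which 15 varied by at most 0.25.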
